A study of Mus musculus with 8 samples.

Results

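A large group of odorant receptor (OR) genes with neighbouring numbers lies on mouse chromosome 2, and the members measured here run from Olfr987 to Olfr1317. They were chosen by number: transcript clusters, the units that the array summarises, were taken where the platform annotation gave a single symbol from Olfr987 to Olfr1318. Olfr1230 was left out by the rule. This gave 235 transcript clusters of 232 genes out of 1023 clusters of ORs and 23410 clusters with a gene symbol. No measured value entered this choice. All 235 matched a RefSeq gene on chromosome 2 (assembly GRCm38.p6), where 233 clusters belong to protein-coding genes and 2, those of Olfr1010 and Olfr1174, to annotated pseudogenes.

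ORs are G-protein-coupled receptors that detect odorants on the cilia of olfactory sensory neurons (OSNs). Each OSN transcribes 1 OR gene from 1 allele, so the mRNA of a given OR in the whole tissue comes from a small set of neurons. OR genes sit in tandem arrays that grew by gene duplication, and their short promoters often hold sites for homeodomain and O/E (Ebf) factors. Lhx2 is a LIM homeodomain factor that binds OR promoters and enhancers, together with its cofactor Ldb1 at the enhancers.

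Olfactory mucosae of 8 mice at postnatal day 26 were measured, with 1 array for each mouse. The 4 knockouts were OmpCre:Lhx2(fl/fl), in which Cre from the Omp locus can recombine both floxed Lhx2 alleles once OSNs mature. The 4 controls were littermates with 1 floxed and 1 intact Lhx2 allele: control 1 was Lhx2(fl/+) without Cre, and controls 2 to 4 were OmpCre:Lhx2(fl/+). All were of a mixed 129 x C57BL/6J background. Cre is a targeted insertion that replaces Omp coding sequence, the lox sites flank only the first exons of Lhx2, and recombination was known to be incomplete. Mice are numbered within a group only as a name. The mouse numbers in the sample titles begin with 5, 7 or 9; these title series held knockouts 1 and 2 with controls 1 and 2 (series 5), knockout 3 with control 3 (series 7), and knockout 4 with control 4 (series 9). They were treated as a possible batch.

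Values are log2 expression values, so a difference of 1 is a doubling, and ± after a group mean is the SD over 4 mice. Lhx2 was 12.03, 11.99, 12.17 and 12.16 in knockouts and 12.39, 12.33, 12.29 and 12.33 in controls. The groups did not overlap, but the decrease of 0.25 ± 0.06 (SE, adjusted p = 0.0383) passed the threshold in only 1 of the 8 fits that left out a mouse. Relative to the mature OSN markers below, Lhx2 was higher by 0.36. Centring on those markers raises knockout values throughout, and the median over all clusters tested was then 0.66. Its value combines exons inside and outside the floxed part, from cells with and without Cre. In limma, 6.29% of all clusters tested were called lower and 2.1% higher at an adjusted p under 0.05. Of 15 markers of mature OSNs, 14 were called lower, and their mean level was 11.79 to 11.90 in knockouts and 12.43 to 12.47 in controls. Among 7 immature OSN markers 1 was called lower and 1 higher, among 5 respiratory and gland markers 1 was called lower, and none of 5 basal cell, 5 sustentacular, 5 macrophage markers or the 1 blood marker measured was called in limma. At an unadjusted p under 0.05, 1 basal cell and 1 macrophage marker were higher. In whole mucosa, fewer neurons that express an OR and less OR mRNA in each neuron cannot be told apart. The part of the mature OSN level in the results below was not tested. Changes relative to that marker list are given for the cluster, its families and named receptors that lost their call or changed sign.

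The mean over the receptors of the cluster was lower in every knockout than in every control. The mean log2 value over the 235 transcript clusters was 6.89, 6.83, 6.78 and 6.67 in knockouts 1 to 4, and 7.90, 7.77, 7.86 and 7.91 in controls 1 to 4. The gap between the 2 groups of arrays was larger than the range within either group. The group means were 6.79 ± 0.09 in knockouts and 7.86 ± 0.07 in controls (SD, n = 4 each), a difference of -1.07, which is a decrease of 52.3%. Within title series 5, 7 and 9 the difference was -0.97, -1.08 and -1.25. No single mouse carried the decrease: in knockouts 1 to 4, 207, 220, 214 and 222 members were below the lowest of the controls. Knockout 4 held the lowest of the 8 values for 108 members, against 71 in knockout 3, 28 in knockout 2 and 21 in knockout 1.

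**Figure D1:**
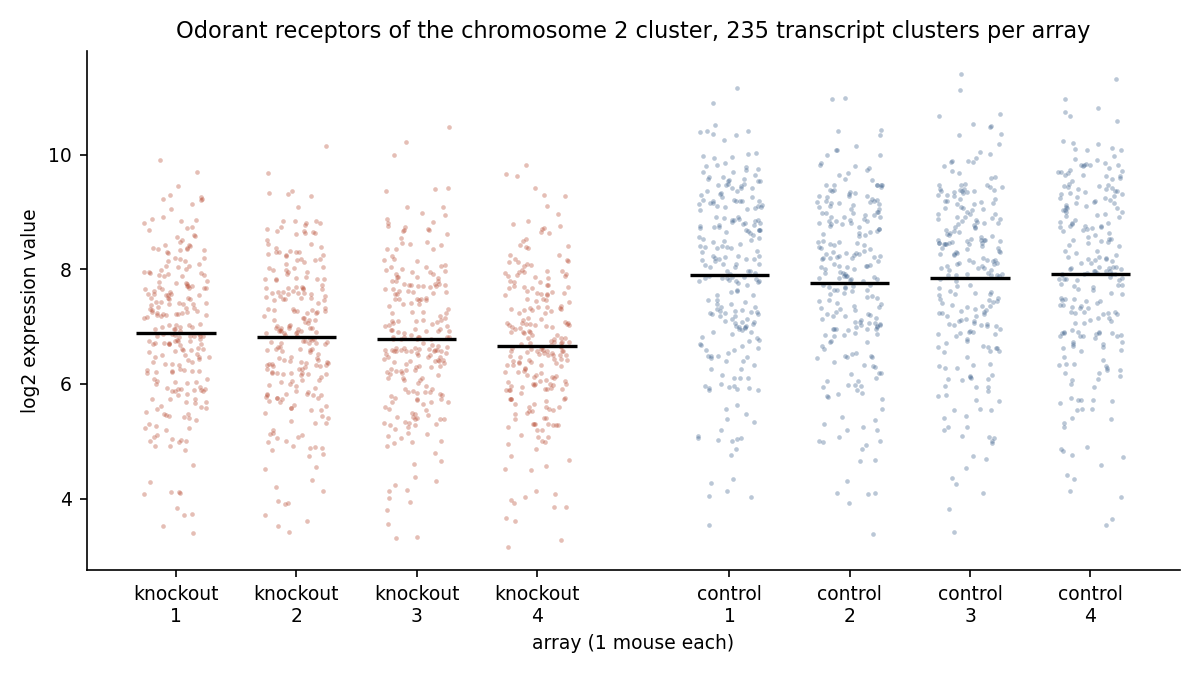
Log2 expression values of the 235 transcript clusters on each array, knockouts on the left and controls on the right; each point is 1 transcript cluster and the bar is the mean of the array. The array means lie between 6.67 and 6.89 in knockouts and between 7.77 and 7.91 in controls.

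Single receptors were compared with limma, and a transcript cluster was called at an adjusted p under 0.05. In the cluster, 200 of 235 members (85.1%) were called lower in knockouts, where 6.29% of all clusters tested were called lower. None was called higher, where 2.1% of all clusters tested were; in limma without adjustment, p was under 0.05 for 213 members that were lower and 0 that were higher. By the methods' t-test with the same adjustment, 172 members were lower and 0 higher, where 5.41% of all clusters tested were lower and 1.87% higher. A negative change was seen for 230 members, and 225, 225 and 231 were lower within title series 5, 7 and 9. For 200 members all 4 knockouts were below all 4 controls, which held for 7.83% of all clusters tested. The median change of the members was -1.06 (quartiles -1.49 and -0.64), a decrease of 51.9%, against a median of 0.05 over all clusters tested. By size, 130 members decreased by more than 1 log2 unit, 58 by more than 1.5 and 7 by more than 2.

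Relative to the mature OSN marker list, the decrease was smaller and no longer covered nearly the whole cluster. With each array centred on that list, 146 members were called lower and 21 higher, and the median change was -0.45. The 15 markers themselves changed by -2.02 (Cnga4) to -0.11 (Umodl1), with a mean of -0.61 and a median of -0.49. The size of the shift therefore depends on which markers are listed. The paper used a much longer list of mature OSN mRNAs and reported a smaller mean decrease for it. The shift made here is thus larger than the paper's. Calls lost relative to this list do not carry over to the paper's normalization. Of the 200 members called lower before, 146 were still called lower, 53 were not called and 1 was called higher. Of the other 35, 20 were called higher and 15 were not called. That centring raises knockout values throughout: 3.26% of all clusters tested were then called lower and 93.5% higher, and their median change was 0.66.

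The largest decrease was that of Olfr1294, in the distal part of the cluster. Olfr1294 measured 7.26, 7.52, 6.86 and 7.24 in knockouts and 9.61, 9.48, 9.37 and 9.81 in controls. It was 5.09 times lower (-2.35 ± 0.14, SE, adjusted p = 3.77e-06), and its highest knockout lay far below its lowest control. Olfr1097 measured 7.39, 7.12, 6.65 and 6.57 in knockouts and 9.16, 9.15, 9.38 and 9.11 in controls, a change of -2.27 ± 0.17 (adjusted p = 1.21e-05). Its level was lower in the knockouts of title series 7 and 9 than in both of title series 5. Olfr1257 measured 7.67, 7.54, 6.67 and 7.03 in knockouts and 9.81, 9.09, 9.61 and 9.32 in controls, a change of -2.23 ± 0.23 (adjusted p = 0.0001). It had the widest spread among these 3 receptors, and its groups were still apart.

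Olfr1079, Olfr1301, Olfr1015 and Olfr1006 also decreased by more than 2 log2 units. Olfr1079 measured 6.59, 6.64, 6.22 and 6.31 in knockouts and 8.86, 8.35, 8.45 and 8.87 in controls, a change of -2.19 ± 0.14. Olfr1301 had the tightest values of the 12 largest decreases, with 8.14, 8.02, 7.80 and 7.95 in knockouts and 9.98, 10.08, 10.05 and 10.08 in controls, and its adjusted p was 7.25e-07 for a change of -2.07 ± 0.08. Olfr1015 (-2.03) and the brighter cluster of Olfr1006 (-2.02) lie close together near the start of block 1 and belong to 1 receptor family. The next 5 were Olfr1263 (-1.98), Olfr1206 (-1.98), Olfr1228 (-1.94), Olfr1154 (-1.93) and Olfr1098 (-1.92). All 12 were called in each of the 8 fits that left out a mouse, and all decreased in each title series. They are spread over the group: 3 of the 12 (Olfr1006, Olfr1015 and Olfr1079) come before Olfr1097 and 2 (Olfr1294 and Olfr1301) lie in its separate distal block.

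**Figure D2:**
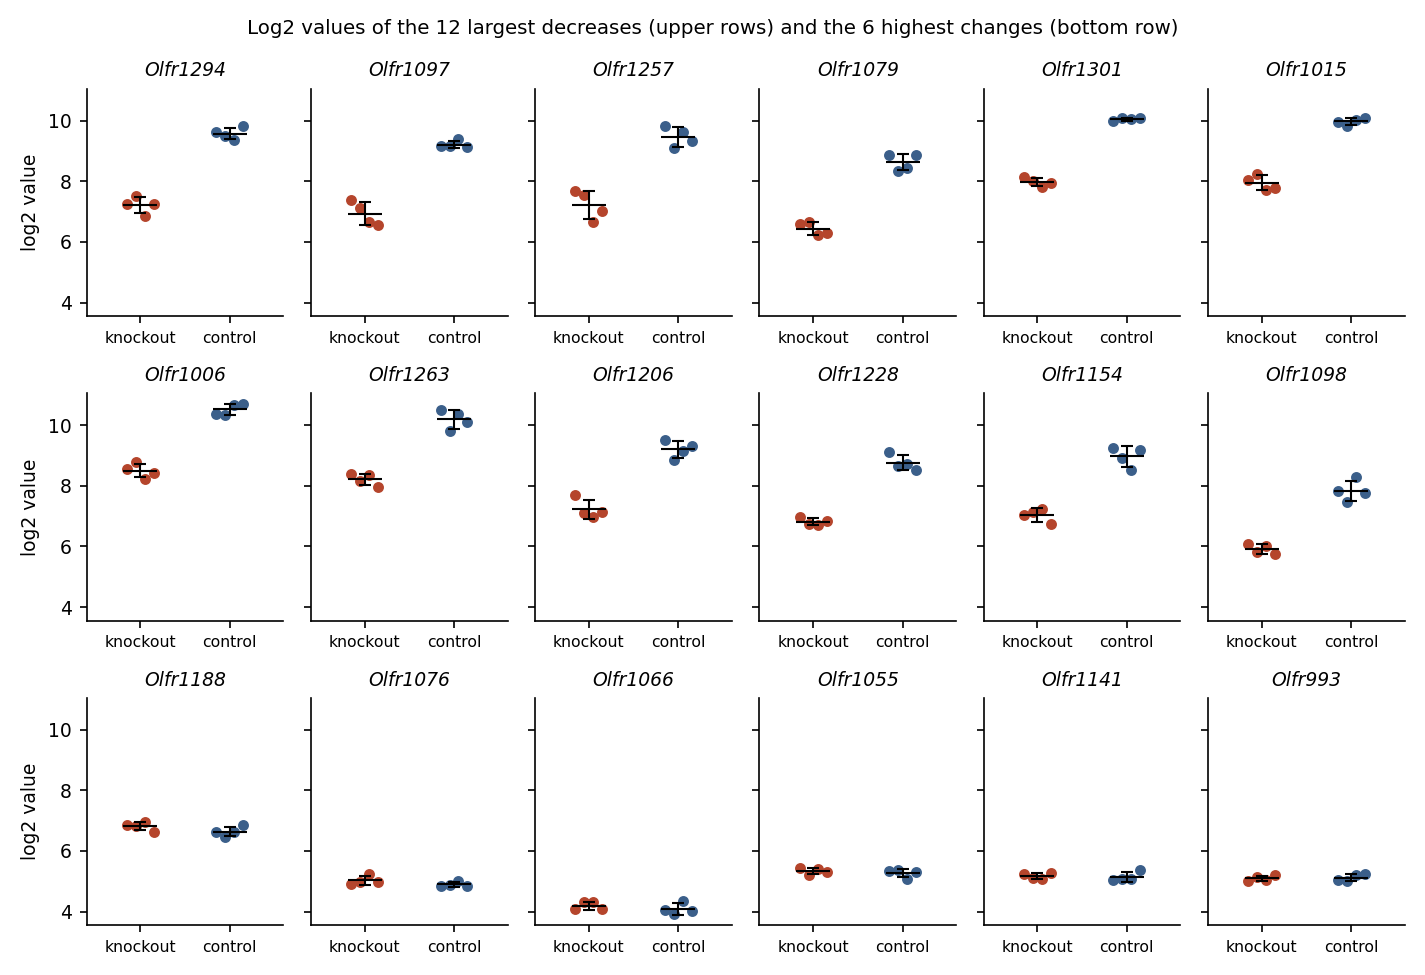
Log2 values of the 12 members with the largest decrease (upper rows) and the 6 with the highest change (bottom row), knockouts left of controls; points are mice, and the bars are the mean and SD of 4 mice. The upper 12 show no overlap between groups, and the 6 in the bottom row overlap, with every value under 7.

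The receptors with the highest array signal decreased as well, by unequal amounts. Olfr1176, the highest in controls, measured 9.91, 10.15, 10.48 and 9.83 in knockouts and 11.17, 10.97, 11.14 and 11.32 in controls (-1.06 ± 0.14, adjusted p = 0.000585). Olfr1264 measured 9.22, 9.31, 9.999 and 9.64 in knockouts and 10.90, 10.99, 11.40 and 10.97 in controls (-1.53 ± 0.17, adjusted p = 0.000222). Olfr1174, an annotated pseudogene next to Olfr1176 and of its family, measured 9.71, 9.69, 10.23 and 9.66 in knockouts and 10.42, 10.43, 10.51 and 10.74 in controls. Its change of -0.70 ± 0.13 (adjusted p = 0.0067) was the smallest among the 6 members with the highest signal, knockout 3 stood above the other knockouts, and relative to the mature OSN list the change was -0.09 and was not called (adjusted p = 0.537). Olfr1016 (-1.25), Olfr1297 (-1.47) and Olfr1006 (-2.02) complete the 6. Probes differ in response, so the order of their signals is not an order of mRNA amounts.

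Olfr1019, a receptor for the fox odour component trimethylthiazoline, decreased to 7.79, 7.81, 7.71 and 7.30 in knockouts, against 9.55, 9.28, 8.996 and 9.46 in controls. The change was -1.67 ± 0.14 (adjusted p = 3.19e-05), and the groups did not overlap. Olfr1019 ranked among the larger decreases without being one of the 12 largest.

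The 35 members that were not called had a lower control signal as a group. Their median control level was 6.64, against 8.23 for the 200 called members. Vomeronasal receptors, which are expressed in the vomeronasal organ rather than in the olfactory mucosa, give a measure of array signal without the mRNA in question: their 170 clusters had a median control level of 4.40 and a 90th percentile of 5.70. At or below 5.70 lay 21 members, of which 9 were called lower and 12 were not (median change -0.30). Of the 214 members above it, 191 were called lower and 23 were not (median change -1.16). Most uncalled members thus lay above this range. The vomeronasal clusters themselves had a median change of 0.10, with 0 called lower and 5 higher, where 6.29% and 2.1% of all clusters tested were. At an unadjusted p under 0.05 in limma, 0 were lower and 31 higher, where 2176 of the 23410 clusters tested were higher.

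The 6 members with the highest change were Olfr1188 (0.18 ± 0.10), Olfr1076 (0.13 ± 0.08), Olfr1066 (0.11 ± 0.11), Olfr1055 (0.06 ± 0.08), Olfr1141 (0.03 ± 0.09) and Olfr993 (-0.02 ± 0.08). None passed the test, with adjusted p from 0.358 to 0.943. All but Olfr1188 were within the range of the vomeronasal clusters. Olfr1188 measured 6.87, 6.84, 6.95 and 6.63 in knockouts and 6.63, 6.47, 6.62 and 6.84 in controls. Its groups overlapped, and it was higher within title series 5 and 7 (0.30 and 0.34) and lower within title series 9 (-0.21). The signs of Olfr1055, Olfr1141 and Olfr993 turned under other scalings or without single mice.

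A few members with a higher signal also missed the threshold. With a control level above 8 there were 6 of them: Olfr1173, Olfr1219, Olfr1216, Olfr1031, Olfr1251 and Olfr1253, named after their values were seen. Olfr1031 measured 8.29, 8.85, 8.95 and 8.53 in knockouts and 8.92, 9.19, 8.62 and 9.04 in controls, with a change of -0.29 ± 0.16 (adjusted p = 0.405). Its knockout 3 was above its control 3. Olfr1251 measured 8.59, 8.31, 7.70 and 8.07 in knockouts and 8.78, 9.15, 8.79 and 8.60 in controls, with a change of -0.66 ± 0.18 (adjusted p = 0.0553). Its highest knockout was just below its lowest control. Olfr1253 measured 7.57, 7.99, 7.08 and 6.16 in knockouts and 7.97, 7.86, 8.17 and 8.46 in controls. Its change was -0.14 within title series 5, -1.09 within title series 7 and -2.31 within title series 9.

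The size of the decrease of a receptor was alike in separate mice. Across the 235 members the change in title series 5 and the change in title series 7 and 9 together, which share no array, had a Pearson r of 0.86 and a Spearman rho of 0.86. These are correlations across genes, which share the arrays of each comparison and are not independent replicates. When members were put in 4 groups of 58 or 59 by their change in title series 5, with the largest decreases first, the median change in title series 7 and 9 was -1.72, -1.41, -1.02 and -0.50. The measured change was also larger where the probe signal in controls, which depends on the probe as well as on the mRNA, was higher: in 4 groups of 58 or 59 by that signal the median was -0.59 in the dimmest, then -1.04 and -1.38, and -1.47 in the brightest. In the brightest group 56 of 59 members were called lower, and in the dimmest 37 of 59, beside 6.29% of all clusters tested and 82.9% of the other ORs. Relative to the mature OSN list the median was 0.02 in the dimmest group, with 14 called lower and 16 higher, then -0.43, -0.77 and -0.85. On that scale 3.26% of all clusters tested were called lower and 93.5% higher, with a median change of 0.66. The correlation of control signal with change across members was -0.57, and it was -0.49 with the control signal from title series 7 and 9 and the change from title series 5.

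**Figure D3:**
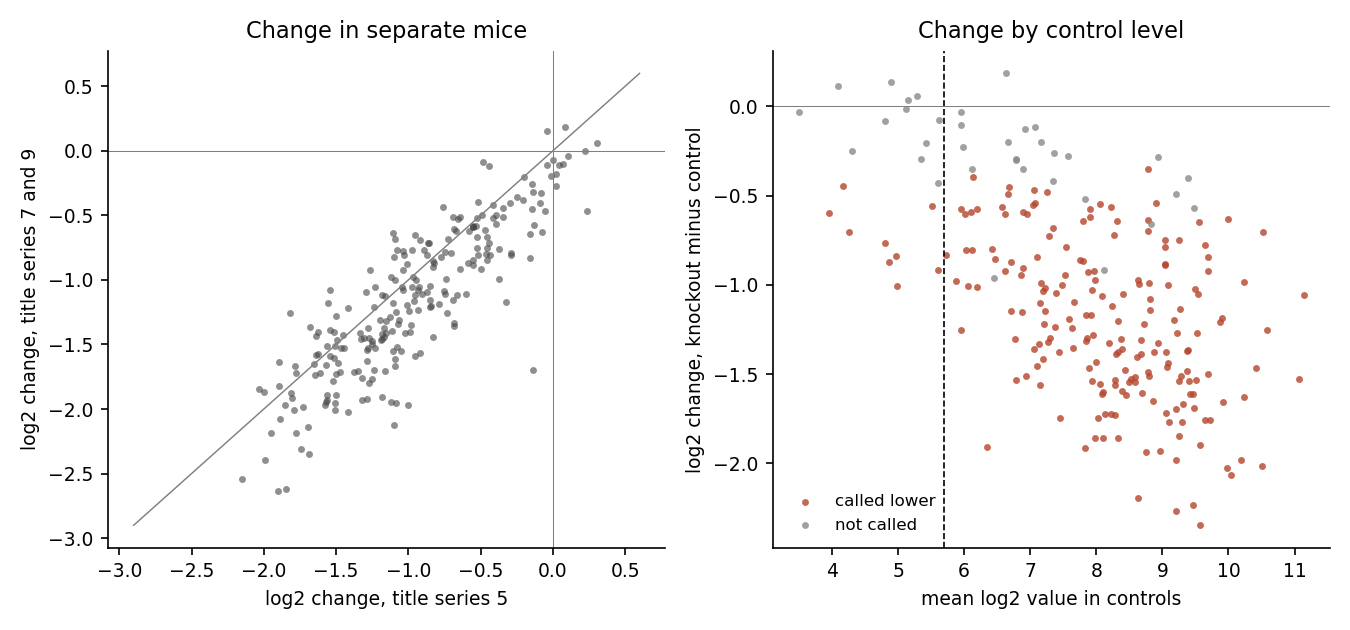
Left, log2 change of each member (knockout minus control) in title series 5 against that in title series 7 and 9, which share no mice; the line marks equal changes. Right, log2 change against the mean log2 value in controls, with the 90th percentile of vomeronasal receptor clusters (5.70) as a dashed line. Changes in separate mice correlate with r = 0.86. Members that were not called had a lower median control level (6.64) than called members (8.23).

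Along chromosome 2 the decrease extended from end to end. The annotated genes fall into 2 blocks that are more than 1 Mb apart: block 1 runs from Olfr987 to Olfr1274 (199 clusters) and block 2 from Olfr1275 to Olfr1317 (36 clusters). Numbers follow the order of the genes, and of 234 adjacent pairs 1 is out of order (Olfr1204 and Olfr1205). In block 1, 166 of 199 members were called lower with a median of -1.05, and in block 2, 34 of 36 with a median of -1.14. Of all clusters tested 6.29% were called lower, and of the other ORs 82.9% with a median of -1.03. Within title series 5, 7 and 9 the medians were -1.01, -1.03 and -1.32 in block 1 and -1.05, -1.52 and -1.17 in block 2, so the order of the blocks was not the same in each series. The ends of the blocks changed too: Olfr987 by -0.92 ± 0.15, Olfr1274 by -1.21 ± 0.13, Olfr1275 by -1.41 ± 0.17 and Olfr1317 by -0.56 ± 0.11, all called lower. Relative to the mature OSN list Olfr987 (-0.31, adjusted p = 0.0723) and Olfr1317 (0.05, adjusted p = 0.66) were no longer called.

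Runs of 20 neighbours differed in median by less than the members within a run differed among themselves. Medians of 20 values would do so in any order, so this says nothing about position. The run with the largest median decrease was Olfr1045 to Olfr1080 (-1.38), whose members nevertheless ranged from -2.19 to 0.13. This order held within title series 5 (-1.31) but not in the others: its median was -1.14 within title series 7, where that of Olfr1276 to Olfr1301 was -1.52, and -1.617 within title series 9, where that of Olfr987 to Olfr1016 was -1.621. The smallest median was that of Olfr1200 to Olfr1223 (-0.78), with a range from -1.98 to -0.13, and within title series 7 that of Olfr1018 to Olfr1044 was smaller (-0.53 against -0.85). Its neighbours on both sides, Olfr1166 to Olfr1199 (-0.88) and Olfr1225 to Olfr1251 (-0.90), had the next smallest medians. In the run Olfr1109 to Olfr1135 all 20 members were called lower, and in each of the 12 runs at least 75% were. The share was 82.9% in the other ORs and 6.29% in all clusters tested.

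The 200 called and 35 uncalled members formed 33 and 32 uninterrupted stretches, with a median length of 3 for the called ones. Of these, 8 held a single member and 6 held 10 or more, and with most members called some long stretches arise from that share alone. The longest called stretch held 34 neighbours, from Olfr1090 to Olfr1135, followed by 24 from Olfr1254 to Olfr1281, which crosses from block 1 to block 2, and 23 from Olfr1289 to Olfr1317. No more than 2 uncalled members were neighbours anywhere. These pairs were Olfr1066 with Olfr1076 (0.11 and 0.13), Olfr1186 with Olfr1188 (-0.08 and 0.18), and Olfr1249 with Olfr1251 (-0.12 and -0.66).

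**Figure D4:**
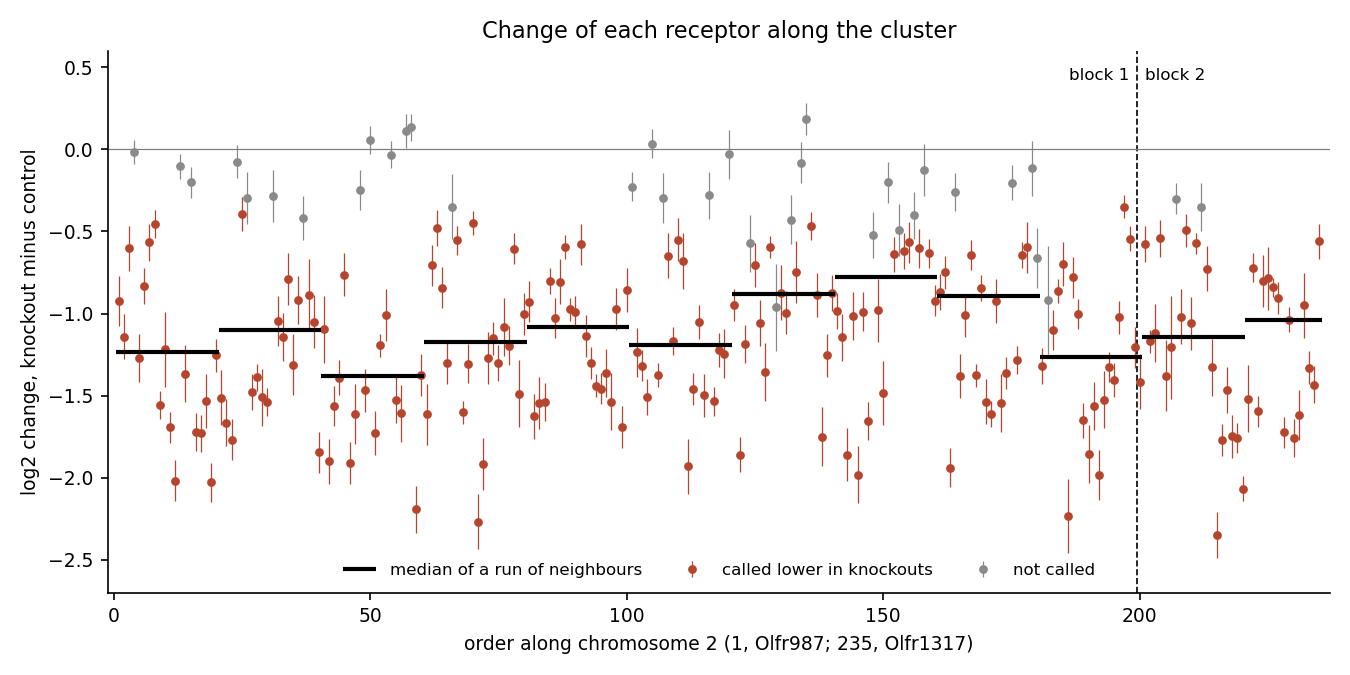
Log2 change of each of the 235 members in their order along chromosome 2 (x axis, place in the order), with bars for the SE; red points were called lower and grey points were not called. Black bars are medians of runs of 20 neighbours (15 in the last), which lie between -1.38 and -0.78, and the dashed line separates block 1 from block 2.

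Neighbours were hardly more alike than any 2 members. Over 230 adjacent pairs the changes correlated with a Pearson r of 0.11 and a Spearman rho of 0.13. The median absolute difference was 0.48 between neighbours and 0.53 over all 27495 pairs. It was 0.44 for the 126 neighbouring pairs of the same family and 0.52 for the 93 of different families (11 pairs include a member without a family name), and 0.44 for the 1010 pairs of 1 family at any distance. More than 1 log2 unit separated 37 neighbouring pairs (16.1%), compared with 19.8% of all pairs.

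The sharpest step between neighbours was that between Olfr1076 and Olfr1079, both of family MOR189. Olfr1076 measured 4.91, 4.98, 5.24 and 4.99 in knockouts and 4.86, 4.87, 5.01 and 4.86 in controls, a level within the vomeronasal range, while Olfr1079 was among the largest decreases. Another step was that from Olfr1228 to Olfr1229, both of family MOR233 and named for this step after their values were seen. Olfr1228 measured 6.96, 6.75, 6.72 and 6.85 in knockouts and 9.11, 8.66, 8.73 and 8.53 in controls (-1.94 ± 0.12, adjusted p = 4.26e-06). Olfr1229 measured 7.39, 6.98, 7.10 and 6.92 in knockouts and 7.28, 7.19, 7.58 and 7.38 in controls (-0.26 ± 0.12, adjusted p = 0.272). The groups were apart for Olfr1228 and overlapped for Olfr1229. Relative to the mature OSN list Olfr1229 was called higher (0.35), as were 93.5% of all clusters tested. Similarly, Olfr1257 (-2.23) was followed by Olfr1258 of the same family MOR232, with 8.80, 8.80, 9.09 and 8.78 in knockouts and 9.57, 9.32, 9.89 and 9.82 in controls (-0.78 ± 0.13, adjusted p = 0.00256), a change of -0.17 that was not called relative to that list.

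Receptors with other numbers lie among the members and were lower as well. There were 13 such clusters. All 13 were called lower with a median of -1.01 (7 of 13 relative to the mature OSN list, against 3.26% of all clusters tested). Of all OR clusters outside the members, which include these, 82.9% were called lower with a median of -1.03. Of all clusters tested, 6.29% were. The largest change among them was that of Olfr153 (-1.59 ± 0.12) and the smallest that of Olfr142 (-0.39 ± 0.10, adjusted p = 0.049), which was called in only 2 of 8 fits that left out a mouse and was higher by 0.22 relative to the mature OSN list. Olfr73, the eugenol receptor mOR-EG, measured 7.70, 7.59, 7.76 and 7.37 in knockouts and 9.28, 9.21, 8.63 and 9.05 in controls (-1.44 ± 0.14). Olfr74, its relative that responds to ethyl vanillin (mOR-EV), measured 6.91, 7.23, 7.31 and 6.98 in knockouts and 7.61, 7.89, 7.77 and 8.17 in controls (-0.75 ± 0.13). Both pairs of groups were apart, and relative to the mature OSN list Olfr74 was at -0.14 and not called. The other 9 (Olfr152, Olfr154, Olfr52, Olfr228, Olfr141, Olfr259, Olfr48, Olfr140 and Olfr32) changed by -1.47 to -0.70. A further 14 clusters that name several genes of the range were left out of the members. All 14 were called lower (median -1.24), beside the same shares of 82.9% and 6.29%.

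Genes of other families lie beside and within the blocks. Of the 20 nearest measured genes, 5 on each side of each block, 1 was called lower and none higher, where 6.29% and 2.1% of all clusters tested were. Among clusters with no Olfr symbol, 2.33% were called lower. With 20 genes the shares cannot be told apart. The median change of the 20 was 0.01. The called gene was Lpcat4, a lysophospholipid acyltransferase next to block 2, at 11.19, 11.25, 11.06 and 11.26 in knockouts and 11.88, 11.92, 11.67 and 11.81 in controls (-0.63 ± 0.08). Its level was lower in all 4 knockouts, and relative to the mature OSN list the change was -0.02 and was not called (adjusted p = 0.805). On the other side of block 2, Muc15, a membrane mucin, had the highest change (0.43 ± 0.16, adjusted p = 0.190), with overlapping groups. Aplnr, the apelin receptor (-0.06), Tnks1bp1 (0.01) and P2rx3, an ATP-gated channel (-0.03), before block 1, and Ptprj, a receptor tyrosine phosphatase (-0.12), and Nup160, a nuclear pore protein (0.01), after it, were not called. Neither were Lrrc55, Prg3, Fnbp4, Agbl2, Mtch2, A26c3, Ano3, Slc5a12, Fibin, Nutm1, Nop10, Emc4 and Emc7, which lay between -0.28 and 0.22. Of the genes between members, Fads2b (-0.02), Pramel7 (0.07) and Pramel6 (0.16) were not called either. At an unadjusted p under 0.05 in limma, 2 of the 20 flanking genes were lower and 1 higher, and 1 of the 3 genes between members was higher.

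Receptor families within the cluster differed in their median change. Family names of the form MOR followed by a number, which group receptors by protein sequence, were given by RefSeq synonyms for 229 members in 48 families, and 10 families held 8 or more members (129 members in all). The largest median decrease among the 10 was in MOR213 (8 clusters from Olfr1006 to Olfr1016), at -1.71, with 7 called lower. The 1 not called was Olfr1010, an annotated pseudogene, at 6.37, 6.37, 6.57 and 6.51 in knockouts and 6.40, 6.74, 6.65 and 6.83 in controls (-0.20 ± 0.10). MOR248 (14 clusters from Olfr1277 to Olfr1302) followed with -1.42 and 13 called lower, and holds both Olfr1294 and Olfr1301. For comparison, 82.9% of the other ORs and 6.29% of all clusters tested were called lower. Within title series 5, 7 and 9 the medians were -1.46, -2.02 and -1.88 for MOR213 and -1.14, -1.87 and -1.49 for MOR248.

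MOR233 (17 clusters from Olfr1211 to Olfr1232) had the smallest median decrease of the 10, at -0.63, with 11 called lower and 6 not called. Its medians were -0.52, -0.77 and -0.81 within title series 5, 7 and 9. The decrease was smaller in MOR185 within title series 7 (-0.44), and that of MOR245 was alike within title series 9 (-0.81). Olfr1222 measured 9.46, 9.33, 9.40 and 9.27 in knockouts and 9.85, 9.86, 10.19 and 10.08 in controls (-0.63 ± 0.09), a small decrease with tight replicates that was -0.02 and not called relative to the mature OSN list. Olfr1219 measured 9.27, 9.10, 8.71 and 8.84 in knockouts and 9.49, 9.19, 9.19 and 9.65 in controls (-0.40 ± 0.14, adjusted p = 0.148), and was 0.21 relative to that list. Olfr1228 (-1.94) and Olfr1213 (-1.48) decreased by more than the rest of the family. MOR245, the largest family (23 clusters, in both blocks), had 22 called lower and a median of -0.84. The medians of MOR177 (-1.20), MOR174 (-1.18), MOR185 (-1.07), MOR225 (-0.98), MOR264 (-0.98) and MOR231 (-0.92) lay between. Relative to the mature OSN list the medians were -1.10 in MOR213, -0.81 in MOR248, -0.23 in MOR245 and -0.02 in MOR233. On that scale 5 members of MOR233 were called lower and 3 higher, where 3.26% and 93.5% of all clusters tested were. The families also differed in control signal, with a median of 9.35 in MOR213, 8.33 in MOR248, 7.91 in MOR233 and 7.20 in MOR245. The part of that signal in the order of the families was not tested. Members of a family can share probe sequence, so their values are not independent measurements.

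**Figure D5:**
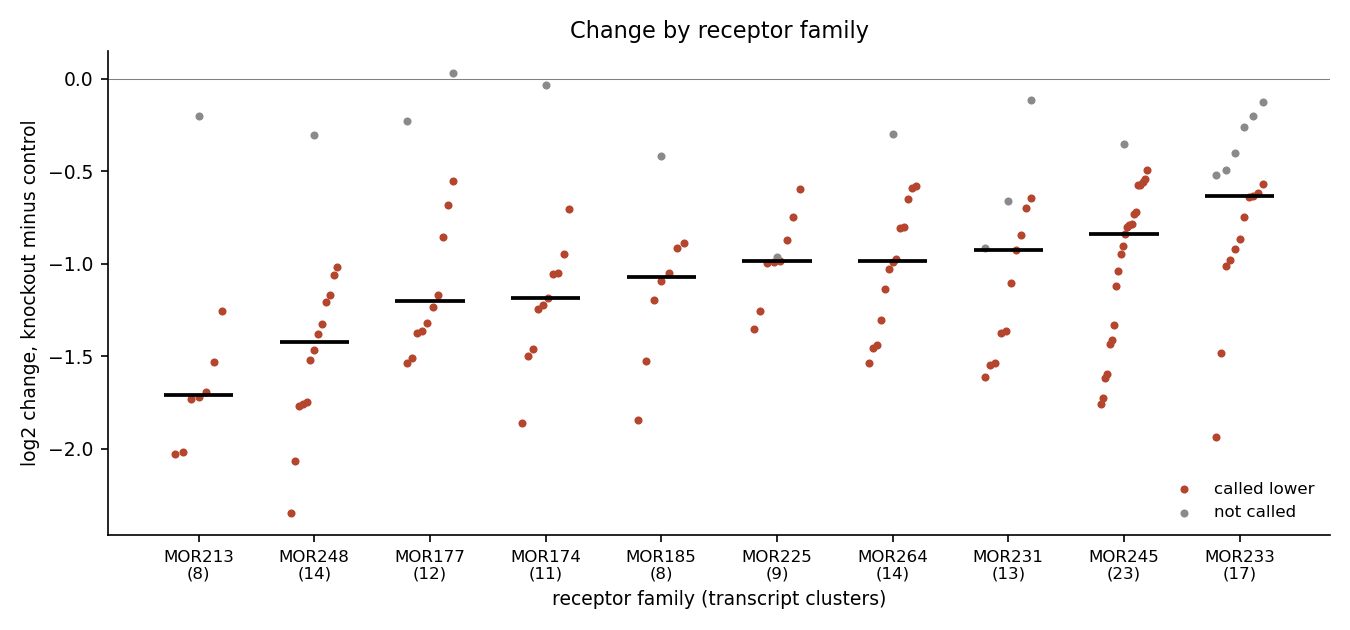
Log2 change of each transcript cluster in the 10 receptor families with 8 or more members, ordered by median (black bars); red points were called lower and grey points were not called, and the number of clusters is given under each family. Medians run from -1.71 in MOR213 to -0.63 in MOR233, and in all of these families but MOR225 the members span more than 1 log2 unit.

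Sequence upstream of the annotated gene starts was examined because the factor deleted here binds a homeodomain core. RefSeq windows (GRCm38.p6) of 250 bases before to 50 after the start were given for 190 of the 232 genes (192 windows). Short motifs were searched on both strands. The first homeodomain core was TAATTA. A second form in the search was TAATGA. The third form of the core was TAATTG. The O/E core was CCCNNGGG. A window with overlapping cores was counted for each of them and only once for any homeodomain core. Of the member windows 61.5% held a homeodomain core, compared with 19.9% of all windows of the table, and 2.6% held the O/E core, compared with 13.7%. Most member models cannot show a promoter: 193 of the 232 genes span under 1100 bases, about a coding sequence alone. Among the 30 windows of genes that span more than 1500 bases the shares were 60% and 16.7%, close to the 57.7% and 11.5% in 104 windows of other ORs of that span.

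Within these longer genes the median change was -1.38 in the 17 genes with a homeodomain core in any of their windows and -1.41 in the 11 without. The difference was not tested. Shown are the 250 bases before the start of 4 of them, as examples of large and small decreases with a core and of a large one without, with the cores in capitals. Olfr1097 lies at chr2:86892164-86892413 on the minus strand and has a core and a change of -2.27. Olfr1095 lies at chr2:86851697-86851946 on the minus strand, is the neighbour before it in the measured order and has a core and a change of -0.45 (0.17 relative to the mature OSN list), at a dim level of 3.72, 3.71, 3.80 and 3.66 in knockouts and 4.14, 4.09, 4.10 and 4.35 in controls. Olfr1046 lies at chr2:86217709-86217958 on the minus strand and has no core and a change of -1.90. Olfr1211 lies at chr2:88930314-88930563 on the minus strand and has a core, and its change of -0.52 was not called (adjusted p = 0.0525). Its change against the mature OSN list was 0.09.
Olfr1097: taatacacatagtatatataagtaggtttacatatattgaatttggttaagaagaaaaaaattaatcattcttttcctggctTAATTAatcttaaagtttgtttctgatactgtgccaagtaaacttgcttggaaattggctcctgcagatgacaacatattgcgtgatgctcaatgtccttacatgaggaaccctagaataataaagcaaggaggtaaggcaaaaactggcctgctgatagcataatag
Olfr1095: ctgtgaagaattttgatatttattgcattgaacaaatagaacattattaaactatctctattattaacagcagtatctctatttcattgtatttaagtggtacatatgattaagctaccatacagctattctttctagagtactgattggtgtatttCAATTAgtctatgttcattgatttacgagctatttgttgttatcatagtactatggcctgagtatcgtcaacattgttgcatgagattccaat
Olfr1046: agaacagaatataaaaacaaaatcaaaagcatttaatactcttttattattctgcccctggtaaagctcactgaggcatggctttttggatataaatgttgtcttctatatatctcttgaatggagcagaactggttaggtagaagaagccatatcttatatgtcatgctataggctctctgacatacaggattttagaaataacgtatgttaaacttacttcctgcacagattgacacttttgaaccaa
Olfr1211: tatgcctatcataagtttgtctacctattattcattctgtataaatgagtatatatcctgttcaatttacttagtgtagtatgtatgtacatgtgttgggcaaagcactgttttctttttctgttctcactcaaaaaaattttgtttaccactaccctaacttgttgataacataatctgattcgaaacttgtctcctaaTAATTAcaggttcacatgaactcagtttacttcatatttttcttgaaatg
The core in Olfr1095 reads CAATTA, which is the third form on the other strand, and those in Olfr1097 and Olfr1211 are of the first form. A match of these letters is not evidence of binding.

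Genes that act on OR transcription and trafficking had a median change of -0.16. Of 14 such genes, limma called 6 lower and 0 higher (7 and 1 without adjustment, at p under 0.05), where 6.29% and 2.1% of all clusters tested were. Besides Lhx2 these were Adcy3, the adenylyl cyclase of olfactory signalling (-0.98 ± 0.12), Atf5, a factor of the OR feedback signal (-0.43 ± 0.06), Rtp2 (-0.42 ± 0.06) and Rtp1 (-0.33 ± 0.07), which carry ORs to the cell surface, and Ebf3, an O/E factor (-0.22 ± 0.05), which like Lhx2 was called in only 1 of 8 fits that left out a mouse. The cofactor Ldb1 (-0.11), the homeodomain factor Emx2 (0.17), Ebf1, Ebf2 and Ebf4 (-0.01, 0.10 and -0.20), the histone demethylase Kdm1a (0.11) and the histone methyltransferases Ehmt1 and Ehmt2 (0.06 and 0.06) were not called. Relative to the mature OSN list, which also holds Adcy3, Rtp1 and Rtp2, Adcy3 was lower (-0.37) and the other 5 were higher, by 0.18 to 0.39. The median over all clusters tested on that scale was 0.66.

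The values of the cluster lay close to those of the other ORs. Of 788 clusters of other ORs, limma called 653 lower (82.9%) and 0 higher (4 higher without adjustment, at p under 0.05), and their median change was -1.03, compared with 85.1% and -1.06 in the cluster. The cluster mean minus the mean of the other ORs was -0.27, -0.39, -0.45 and -0.40 in knockouts 1 to 4 and -0.33, -0.41, -0.29 and -0.37 in controls 1 to 4. These values overlapped between the groups. The difference between the groups was -0.03 in all, and 0.04, -0.15 and -0.03 within title series 5, 7 and 9. A separate group of OR genes on proximal chromosome 2 (27 clusters) had 23 called lower and a median of -0.83, and the ORs of chromosome 9 (125 clusters) had 107 called lower and a median of -1.07.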

How the data were processed

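The deposited values are log2 expression values per transcript cluster, which the authors made with Affymetrix Expression Console from Affymetrix Mouse Gene ST arrays hybridised with total RNA of olfactory mucosa. The sources used here do not give its version, background correction or summarisation. They ran from 2.35 to 14.6 and were used as deposited, and array medians lay between 7.87 and 8.00. Arrays give no counts, and their number limits the precision.

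The table held 35557 clusters: 21789 with 1 gene symbol, 1621 with several and 12147 with none in the platform annotation. The 23410 with a symbol were fitted in R 4.3.3 with limma 3.58.1 (lmFit, then eBayes), knockouts against controls without covariates, and p-values were adjusted over all of them by Benjamini-Hochberg. Gene order, neighbours, family names and upstream windows came from RefSeq (GRCm38.p6), while no source used here names the build of the array design. Blocks end where the next OR is more than 1 Mb away. The script was tested on simulated data.

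Named are the 12 called members with the largest decrease and no overlap, the 6 with the highest change, the 6 with the highest control mean, block ends, the longest uncalled runs, Olfr1019, flanking genes, ORs between members, Lhx2 and Omp. The members, lists and rules were chosen with earlier results of these data known. Nothing says how the mice relate beyond being littermates, so the main fit had no term for litter. Its p-values set the difference between groups against the spread among mice within groups, which can include differences between litters. Alternatives were array-median, quantile and mature OSN list centring, title series as a block, array weights, the methods' t-test, a filter on means under 5, every cluster of the table, 1 cluster per gene, and leaving out each mouse. A comparison of member proteins was not run, and no member pair is named from it. Figures were drawn with matplotlib 3.10.9.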

Additional observations from a re-analysis of the deposited data

Results flagged for a closer look

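Among 146 groups of 4 mice, 9 held a value set apart from the other 3 by the size of its gap relative to the range (Dixon's criterion), and chance sets apart about 1 in 20. In the largest decreases, Olfr1097 had a control 3 of 9.38, above the other controls. Among dim or uncalled members, Olfr1076 had a control 3 of 5.01 and Olfr1141 a control 4 of 5.38, each above the rest of its group. Knockout 3 stood above the other knockouts for Olfr1174 (10.23) and Olfr987 (9.09), and for Pramel7 (5.74), a gene between members that was not called. Knockout 4 was below the others for Olfr152 (6.87). Beside block 2, control 3 was below the other controls for Muc15 (7.64) and Emc4 (11.79).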

How the results depend on the processing

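The count of members called lower was 200 and lay between 172 and 207 over the alternatives that kept all mice, apart from centring on the mature OSN list, and between 190 and 196 when a mouse was left out. The fits that left out a mouse included that without control 1, which lacked Cre. The count was 191 among members above the vomeronasal range, a subset chosen after seeing the data. It was 192 by the methods' t-test at an unadjusted p under 0.01. None was called higher in any of these. Leaving out a mouse gave a median change between -1.12 and -1.02 and a difference in cluster mean between -1.10 and -1.03. The median of the members minus that of the other ORs was -0.02 and lay between -0.089 (without knockout 1) and -0.0011 (without control 1). The median of block 2 minus that of block 1 lay between -0.18 (without knockout 1) and 0.0087 (without knockout 2), so neither difference has a settled size. In all, 188 called members were called without any 1 mouse, 12 were not without at least 1, and 9 uncalled members were called without at least 1. Centring on the mature OSN list changed most: 146 lower, 21 higher, a median of -0.45 and a cluster mean difference of -0.46. Each core counted by itself was in fewer member windows than the 61.5% with any core: TAATTA was found in 25.5% of them, the second form in 28.6% and the third in 30.2%.

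No paired analysis was possible because no label matches single mice across the groups. The title series could be used as a block, and 201 members were then called lower. Of the 69 clusters named by the rules above, 23 changed sign under some setting. All but 3 of these (Lhx2, Olfr142 and Olfr1317) were not called in the first place. On the mature OSN scale the changes became A26c3 0.59, Agbl2 0.42, Aplnr 0.55, Emc4 0.54, Emc7 0.38, Fads2b 0.59, Fibin 0.33, Lhx2 0.36, Olfr1186 0.53, Olfr1249 0.50, Olfr1317 0.052, Olfr142 0.22, Olfr993 0.60, P2rx3 0.58 and Ptprj 0.49. After centring on the array median they were A26c3 0.033, Fads2b 0.038, Olfr993 0.042 and P2rx3 0.026, after quantile normalization Ano3 -0.040, Nup160 -0.0029, Olfr1055 -0.022 and Olfr1141 -0.042, and with array weights A26c3 0.028, Ano3 -0.054, Olfr1055 -0.0029, Olfr993 0.047 and Tnks1bp1 -0.063. The lowest and highest changes without a mouse were A26c3 -0.060 and 0.034, Ano3 -0.0047 and 0.10, Fads2b -0.12 and 0.068, Nop10 -0.016 and 0.059, Nup160 -0.020 and 0.031, Olfr1055 -0.0095 and 0.10, Olfr1141 -0.0028 and 0.11, Olfr1186 -0.18 and 0.012, Olfr1249 -0.20 and 0.058, Olfr993 -0.056 and 0.027, P2rx3 -0.050 and 0.0060, Pramel7 -0.0029 and 0.12, Slc5a12 -0.028 and 0.14, and Tnks1bp1 -0.058 and 0.075. The cause was not tested. The other clusters named by rule kept their direction. Clusters named for other reasons were not among the 69, and some changed sign on the mature OSN scale. They include Olfr1229 (0.35), Olfr1219 (0.21), Olfr1216 (0.12), Olfr1173 (0.04), Olfr1031 (0.33), Olfr1010 (0.41) and Olfr1211 (0.09), which were not called before. Olfr1095 (0.17), Atf5 (0.18), Rtp1 (0.28), Rtp2 (0.19) and Ebf3 (0.39) also changed sign and had been called lower. With 4 mice a group, changes near the spread of dim probes cannot be resolved.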

Other observations

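In 13 of the 32 receptor families with 2 or more members in the cluster, every member measured there was called lower, where 85.1% of all members were. Of the 16 families with 1 member there, 13 had it called. MOR234 (3 clusters from Olfr1261 to Olfr1263) had a median change of -1.86, MOR206 (4 clusters from Olfr1097 to Olfr1100) of -1.59 and MOR172 (5 clusters from Olfr1052 to Olfr1110) of -1.49. These families were named after their values were seen, and clusters of 1 family can share probe sequence.

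For 3 genes 2 transcript clusters were measured. Both were called lower for Olfr1006 (-1.69 and -2.02) and for Olfr1316 (-1.33 and -1.43). For Olfr1289 the cluster with the higher level was called lower (-0.73, adjusted p = 0.00674) and the other was not (-0.35, adjusted p = 0.228).

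Omp, which carries the Cre insertion, measured 12.88, 12.80, 12.37 and 12.43 in knockouts and 13.78, 13.56, 13.22 and 13.27 in controls, a change of -0.84 ± 0.15 (SE, adjusted p = 0.00568). The control of 13.78 was the one without Cre.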
